A study of Mus musculus with 6 samples.

Results

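The cytosolic ribosomal protein genes are those that encode the protein components of the ribosome that translates nuclear mRNAs. They were taken from the array's gene symbols: Rps or Rpl followed by a number, together with Rpsa, Rplp0, Rplp1 and Rplp2, without the S6 kinases, Rps27l and pseudogenes. The array held 91 probes for 61 such genes. A gene was tested when a probe had a detection p under 0.05 on at least 3 of the 6 arrays, and its brightest probe stood for it. By this rule 52 of the 61 genes were tested, among 11241 features in all (8836 named genes and 2405 probes without a single gene symbol). The rule itself used no difference between the groups, although the members were chosen with earlier results of these data known.

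The study measured total RNA from mouse T-cell acute lymphoblastic leukaemia (T-ALL) on bead arrays, with 3 samples labelled Hes1 knockout (KO) and 3 labelled Hes1 wild type (WT). All 6 samples carried the same engineered genotype, ΔE-NOTCH1 Rosa26 Cre-ERT2 Hes1flox/flox: an activated NOTCH1 delivered by retrovirus to lineage-depleted bone marrow, a tamoxifen-inducible Cre recombinase, and Hes1 alleles that Cre removes. The hosts were lethally irradiated, immunodeficient NRG mice. KO samples had 4-hydroxy-tamoxifen for 36 hours and WT samples had ethanol for 36 hours. The labels also describe tamoxifen (5 mg per mouse) or vehicle in secondary recipients and do not settle whether the RNA came from culture or from mice. No sample had the drug with Hes1 left intact, so the loss of Hes1 cannot be told apart from what the drug or active Cre may do. The replicates are called biological, but the labels do not say that they came from separate leukaemias or cultures, so the p-values reflect only how these arrays vary, which may be technical. RNA input was 10 ng per sample, amplified before labelling.

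Ribosomal proteins assemble with ribosomal RNA in the nucleolus into a small subunit, which reads the mRNA, and a large subunit, which joins amino acids. Their mRNAs are among the most abundant in growing cells, and many begin with a C followed by an unbroken run of pyrimidines, the terminal oligopyrimidine (TOP) motif, through which the mTORC1 kinase and Larp1 control their translation, and Larp1 also their stability. NOTCH1 signalling is known to raise ribosome biogenesis genes in T-ALL, partly through Myc, and HES1 is a transcriptional repressor that NOTCH1 induces. In human T-ALL, genes for large-subunit proteins are recurrently mutated, and in mice Rpl22 is needed for the development of αβ T cells.

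The promoters of 8 genes whose values are described below are shown for their transcription starts, of which 6 carry a pyrimidine run nearby. Each line gives 30 bases before and 30 bases from the annotated transcription start, from RefSeq on build GRCm38.p6, 5′ to 3′ on the gene's strand. Capitals mark, in each promoter, the longest run of a C followed by at least 5 further C or T bases that begins within 10 bases before to 40 bases after the start. Rplp0 and Rpl7l1 hold no such run in that window.
Rpl38, chr11:114668550-114668609, plus strand: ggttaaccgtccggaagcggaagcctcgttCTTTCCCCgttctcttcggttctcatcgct
Rps10, chr17:27635215-27635274, minus strand: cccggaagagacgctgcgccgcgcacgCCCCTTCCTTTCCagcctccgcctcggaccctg
Rps6, chr4:86857338-86857397, minus strand: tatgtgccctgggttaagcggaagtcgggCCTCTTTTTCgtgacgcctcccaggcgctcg
Rplp2, chr7:141447621-141447680, plus strand: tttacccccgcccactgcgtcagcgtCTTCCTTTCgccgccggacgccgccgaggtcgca
Rpl23, chr11:97782410-97782469, minus strand: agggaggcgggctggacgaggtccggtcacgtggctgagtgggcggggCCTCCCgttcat
Rpl22l1, chr3:28805478-28805537, plus strand: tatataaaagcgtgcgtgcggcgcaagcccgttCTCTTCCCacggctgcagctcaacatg
Rplp0, chr5:115559437-115559496, plus strand: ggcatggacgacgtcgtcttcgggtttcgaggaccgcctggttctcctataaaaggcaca
Rpl7l1, chr17:46782627-46782686, minus strand: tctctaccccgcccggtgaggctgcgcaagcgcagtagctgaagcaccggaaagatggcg

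RefSeq promoters were matched for 44 of the 52 tested genes, 52 promoters in all. The pyrimidine run was found in 38 of the 52 promoters (73.1%), which belong to 35 of the 44 genes, against 33.3% of all 32851 promoters in the table. The longest run of a C followed by C or T bases was also measured in each promoter, whatever its length. Its median was 8 bases in the ribosomal protein promoters and 5 bases over all promoters, and the longest in a ribosomal protein promoter was 20 bases. Over the whole window from 250 bases before to 50 bases after the start, on both strands, the letters CGGAAG (the core bound by ETS-family factors) stood in 63.5% of the ribosomal protein promoters and 16.9% of all promoters. CACNAG, the N-box that HES1 can bind, stood in 42.3% and 42.5%. CACGTG, the E-box bound by Myc and Max, stood in 13.5% and 7.15%, and AAGATGG, the core of the YY1 site, in 15.4% and 6.34%. TATAAA stood in 11.5% and 13.6%. These shares describe letters in the sequence, and no binding was measured here.

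Hes1, the deleted gene, followed the labels. Its normalised log2 intensity was 4.51, 4.44 and 4.66 on the 3 KO arrays, where it was never detected, and 10.97, 11.15 and 10.82 on the 3 WT arrays, where it was always detected. On these background-corrected values, against the detection limit of the KO arrays, Hes1 was at least 53.5-fold lower in KO (limma adjusted p = 1.0e-06). The size depends on the background step, and without background correction it was at least 13.2-fold lower. The leukaemia's T-lineage identity was seen on every array in Cd3e, Cd3g, Cd3d, Thy1, Cd2, Ptcra and Rag1, the 7 of 10 measured T-ALL markers that passed detection, with a summed level of 89849 to 98375 in KO and 87377 to 95149 in WT. Of the markers that did not pass, 2 were detected on 0 arrays. Without overlap, Cd2 (0.52) and Thy1 (0.14) were higher in KO and Ptcra (−0.25) lower (limma adjusted p = 0.193, 0.690 and 0.580). The groups overlapped for Cd3e, Cd3g, Cd3d and Rag1. Of the markers of other cells, 0 of 7 myeloid and 0 of 4 erythroid genes passed detection, although the summed myeloid level was 195 to 229 in KO and 183 to 185 in WT, and the summed erythroid level 105 to 106 in KO and 99.1 to 103 in WT. Among B-cell markers 1 of 3 passed, Ebf1, an early B-lineage factor, which was detected on 3 KO and 0 WT arrays. Its log2 intensity was 5.28, 5.36 and 5.67 in KO and 5.26, 5.22 and 5.17 in WT, close to background and not overlapping, and the summed B-cell level was 90.4 to 117 in KO and 89.2 to 98.2 in WT. Ebf1 passed the filter through the KO arrays alone, which favours values higher in KO. Among stromal and endothelial markers 1 of 6 passed, the endothelial gene Pecam1, and the summed level of that list was 973 to 1319 in KO and 731 to 905 in WT. Pecam1 was detected on every array, with log2 intensities of 10.20, 9.70 and 9.89 in KO and 9.22, 9.59 and 9.40 in WT. Its groups did not overlap, with a change of 0.53 (limma adjusted p = 0.378). The part of other cells in the values below was not tested. The mean signal over all probes before normalisation was 519.7, 631 and 687 on the KO arrays and 713, 708 and 703 on the WT arrays. The array of KO replicate 1 stood apart: its mean correlation with the other arrays was 0.981, against 0.990 to 0.991 for the other 5, and 31.3% of all features were lowest on it.

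No cytosolic ribosomal protein gene changed by the test. With limma and Benjamini-Hochberg adjustment over all features, 0 of 52 passed an adjusted p of 0.05, where 0.0623% of all features did (7 of 11241). At an unadjusted p under 0.05 the count was also 0 of 52, where 9.27% of all features passed. The smallest unadjusted p was 0.110 and the adjusted p-values ran between 0.630 and 0.991. Every alternative processing that was run also gave 0 genes past its adjusted threshold.

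The changes were small and ran both ways. The median log2 change, KO minus WT, was 0.025 over the 52 genes and 0.0026 over all features, with single genes between −0.37 and 0.19. Values were higher in KO for 31 genes and lower for 21, and 49.5% of all features were lower. With each array scaled to its median in place of quantile normalisation, 49 of the 52 were lower with a median of −0.15, and the median of all features was −0.17. So the split of higher and lower values depends on the scaling, while 21 of the 52 genes lay below the median of all features under either scaling. The interquartile range of the changes was 0.107 log2 units, against 0.273 for all features, and 38 of the 52 lay within 0.1 of no change. At a mean raw signal over 20000 the range was 0.073 for the 36 ribosomal protein genes and 0.133 for all 185 features. In 6 genes every KO value lay above every WT value, a pattern found in 8.49% of all features. In 2 genes every KO value lay below every WT value, which held for 7.69% of all features.

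The median standard error was 0.111 for the ribosomal protein genes and 0.143 for all features. The 95% interval of the change lay within 1.5-fold in either direction for 50 of the 52 genes, and this was so for 64.9% of all features. These intervals hold for the quantile-normalised values and were not counted under other scalings. Under median scaling the median standard error of the 52 genes was 0.166 and their median change −0.15. Most of the 52 genes are bright, and among features with a mean raw signal over 20000 the interval lay within 1.5-fold for all 36 ribosomal protein genes and for 98.4% of all 185 features. Whether such signals were compressed near the top of the scanner's range was not tested, and dimmer probes of the same genes, given below, read differently. The interval lay within 2-fold for 51 of the 52. The lowest lower bound was −1.002, for Rpl22l1, and the highest upper bound was 0.51, for Rps15a.

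**Figure D1:**
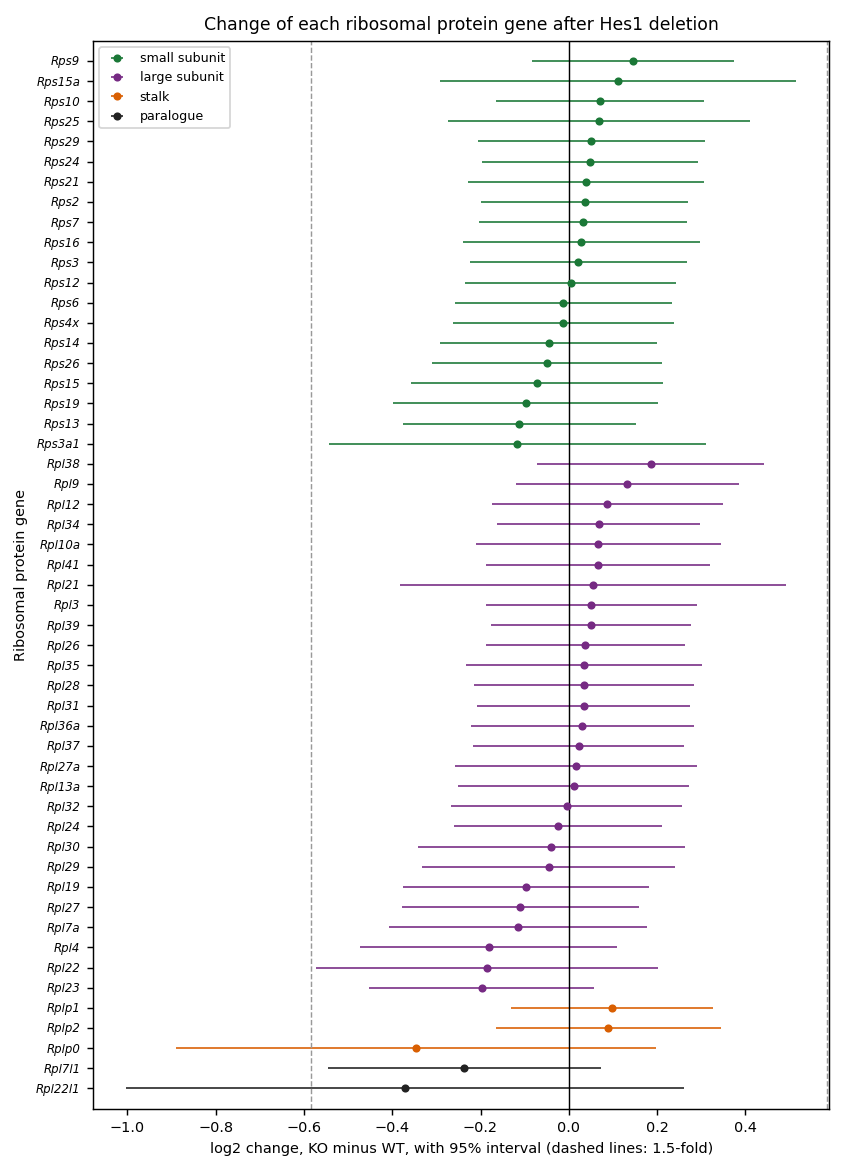
Log2 change (KO minus WT, horizontal axis) of each of the 52 ribosomal protein genes (vertical axis), with bars for the 95% interval from limma and colours for the group of the gene. Every interval includes 0, and the values run between −0.37 (Rpl22l1) and 0.19 (Rpl38); under median scaling 49 of the 52 values are lower in KO.

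The small subunit was represented by 20 of its 23 genes with a probe. Values were higher in KO for 12 and lower for 8, with a median of 0.025 and a range of −0.12 to 0.15, and 0 of the 20 passed the test. The median was −0.12 under median scaling, −0.00022 with array weights and 0.00031 without KO replicate 2.

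Rps9, a core protein of the small subunit whose bacterial relative affects decoding accuracy, had the highest change of the group. Its normalised log2 intensity was 15.12, 15.13 and 15.07 in KO and 14.95, 14.93 and 15.00 in WT. The 3 KO values all lay above the 3 WT values, by a change of 0.15 ± 0.098 (SE, n = 3 each; limma adjusted p = 0.664). A second Rps9 probe of like signal did not show the separation, with a change of −0.036, and the mean of the probes gave 0.055. Rps10, which lies near the mRNA entry and in human cells is ubiquitinated by the Zfp598 homologue when ribosomes collide, read 14.53, 14.51 and 14.53 in KO and 14.37, 14.51 and 14.48 in WT. Its groups did not overlap either, with a change of 0.071 ± 0.10 (SE, n = 3 each) that was −0.16 under median scaling.

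Rps6, the substrate of the S6 kinases, had 15.08, 15.20 and 15.24 in KO and 15.12, 15.20 and 15.24 in WT. The KO and WT values lay almost on top of each other, and the change was −0.013 ± 0.11 (SE, n = 3 each), with a 95% interval of −0.26 to 0.23. Rps6 was the brightest feature tested, and quantile normalisation gives the top ranks of every array the same values, which brings such values together. Before normalisation its raw signal was 32009, 35111 and 38914 in KO and 40652, 39664 and 39804.5 in WT. All KO signals were lower, as was the mean over all probes. Rps14, whose loss marks the human 5q- syndrome, had 14.95, 14.98 and 15.03 in KO and 14.95, 15.01 and 15.14 in WT. Rps19, the gene most often mutated in Diamond-Blackfan anaemia, had 14.98, 14.95 and 14.75 in KO and 15.14, 15.01 and 14.82 in WT. The groups overlapped for both genes, with changes of −0.046 ± 0.11 for Rps14 and −0.098 ± 0.13 for Rps19 (SE, n = 3 each). Cyclic loess turned both, to 0.075 and 0.035, and Rps14 was 0.0072 without WT replicate 3.

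Rps3a1, a protein of the small subunit's platform, had the lowest change of the group. Its log2 intensity was 11.48, 11.83 and 12.02 in KO and 11.61, 11.98 and 12.09 in WT. The spread within each group was larger than the change of −0.12 ± 0.18 (SE, n = 3 each), which was 0.032 without KO replicate 1. Rps15a had much weaker signal, at 7.79, 7.60 and 7.26 in KO and 7.41, 7.25 and 7.66 in WT. Its change of 0.11 ± 0.17 became −0.0081 without KO replicate 1.

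Proteins of the small subunit's head, the part that swivels as tRNAs move, were represented by 8 genes, 6 higher and 2 lower in KO, with a median of 0.025. That median was −0.15 under median scaling and −0.0035 without KO replicate 2.

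The large subunit without its stalk was represented by 27 of its 30 genes with a probe. Of these, 17 had higher and 10 lower values in KO, with a median of 0.031 and a range of −0.20 to 0.19, and 0 passed the test. The median was −0.17 under median scaling, −0.018 with scaling to the 75th percentile and −0.0045 with the mean of probes.

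Rpl38, whose loss in mice alters the body plan through translation of Hox mRNAs, had the highest change of all 52 genes. Its log2 intensity was 14.89, 14.72 and 14.94 in KO and 14.68, 14.60 and 14.72 in WT. The groups did not overlap, although the lowest KO value and the highest WT value differed by less than the spread within either group. The change was 0.19 ± 0.11 (SE, n = 3 each; limma adjusted p = 0.643). A second, dimmer Rpl38 probe gave −0.14, and the mean of the probes gave 0.023.

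Rpl23, which lies at the interface between the subunits and can bind the p53 regulator Mdm2, was among the 2 genes with every KO value below every WT value. It had 14.83, 14.65 and 14.61 in KO and 14.88, 14.86 and 14.94 in WT, a change of −0.20 ± 0.11 (SE, n = 3 each; limma adjusted p = 0.630). The other detected Rpl23 probes gave 0.066 at nearly the same signal and −0.019 at lower signal, and the mean of the probes was −0.050. The change on the brightest probe was larger than on the gene's other probes, of which 1 had the same direction and 1 the opposite.

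Rpl9, a protein near the base of the stalk, had 15.15, 15.00 and 15.08 in KO and 14.94, 15.04 and 14.86 in WT. Rpl12, which is part of that base, had 14.81, 14.95 and 14.80 in KO and 14.72, 14.89 and 14.69 in WT. The groups overlapped for each, with changes of 0.13 ± 0.11 and 0.087 ± 0.11 (SE, n = 3 each). Rpl12 turned to −0.066 under median scaling.

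At the peptide exit, where the new chain leaves the ribosome, 6 genes were tested, 4 higher and 2 lower in KO, with a median of 0.034. That median was −0.17 under median scaling, −0.022 with scaling to the 75th percentile, −0.013 with the mean of probes and −0.029 without WT replicate 3. Rpl26 and Rpl39, chosen here after their values were seen because their groups did not overlap, belong to the exit tunnel. Rpl26 had 14.45, 14.46 and 14.50 in KO and 14.41, 14.44 and 14.45 in WT. Rpl39 had 14.64, 14.65 and 14.68 in KO and 14.59, 14.64 and 14.59 in WT. The separation was narrow in each, with changes of 0.038 ± 0.097 and 0.050 ± 0.097 (SE, n = 3 each).

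Rpl4, whose long extension lines the exit tunnel, had 11.41, 11.67 and 11.77 in KO and 11.82, 11.76 and 11.81 in WT. Its lowest value was that of KO replicate 1, and the change of −0.18 ± 0.13 (SE, n = 3 each) was −0.077 without it. Rpl7a, another large subunit protein, had 12.74, 12.61 and 12.82 in KO and 12.74, 13.02 and 12.75 in WT. WT replicate 2 was the high value here, and without it the change of −0.11 ± 0.13 was −0.024.

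**Figure D2:**
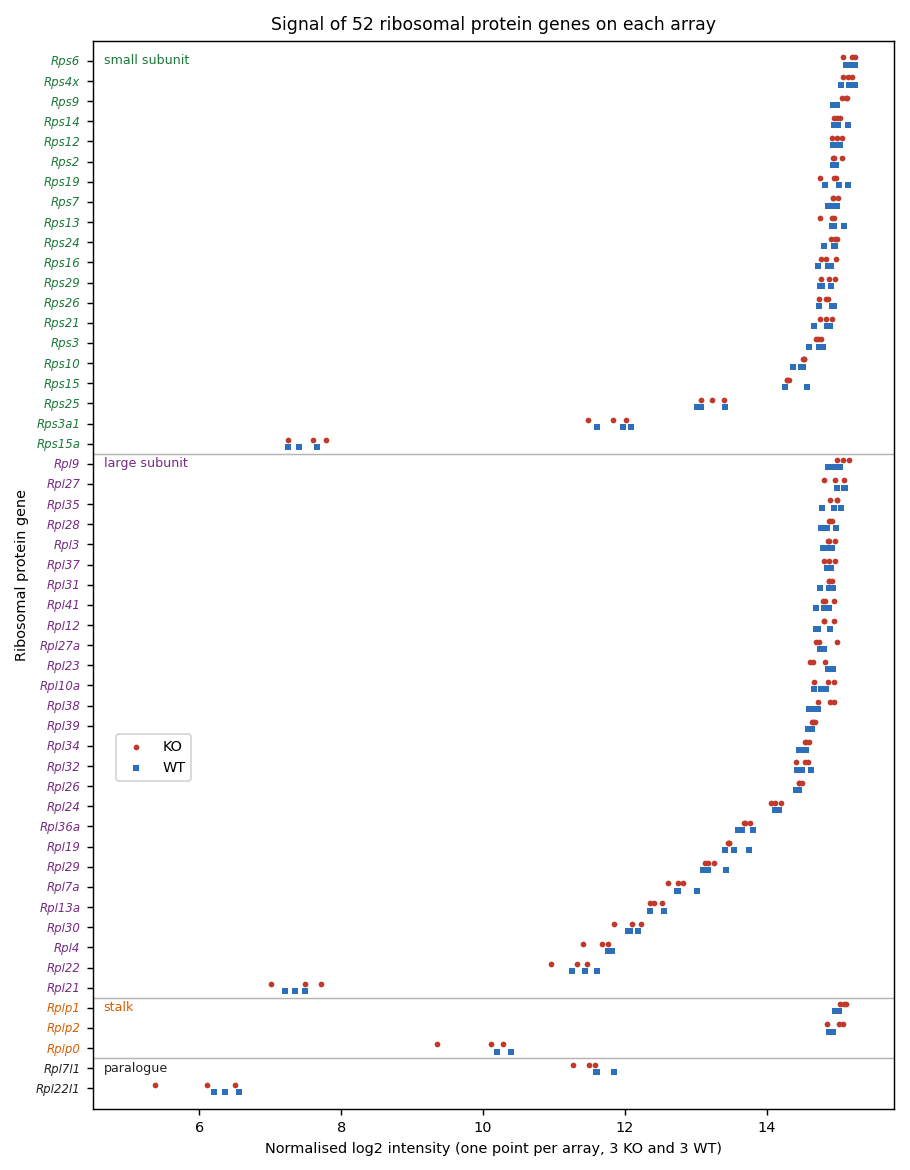
Normalised log2 intensity (horizontal axis) of each ribosomal protein gene (vertical axis) on the 3 KO and 3 WT arrays, 1 point per array, in blocks for the small subunit, large subunit, stalk and paralogues. Most genes lie close to 15, where the points of KO and WT are interleaved, and the widest scatter is in the dim genes Rpl22l1 and Rplp0, where KO replicate 1 is lowest.

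The stalk of the large subunit consists of Rplp0, the anchor, and dimers of the acidic proteins Rplp1 and Rplp2, which recruit elongation factors. Rplp1 had 15.04, 15.12 and 15.09 in KO and 14.98, 14.97 and 15.01 in WT. All 3 KO values lay above the WT values, with a change of 0.098 ± 0.098 (SE, n = 3 each; limma adjusted p = 0.761) that was −0.032 under median scaling. Rplp2 had 14.85, 15.08 and 15.02 in KO and 14.93, 14.87 and 14.87 in WT, with overlap because KO replicate 1 was lowest. Its change was 0.090 ± 0.11 (SE, n = 3 each), 0.148 without KO replicate 1, 0.042 without KO replicate 2 and −0.057 under median scaling. Rplp0 had 9.36, 10.11 and 10.28 in KO and 10.19, 10.20 and 10.39 in WT. The value of KO replicate 1 stood well below the other 5, and the change of −0.35 ± 0.23 (SE, n = 3 each; limma adjusted p = 0.664) was −0.067 without that array.

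The paralogues, genes copied from a ribosomal protein gene, had 5 genes with a probe, of which Rpl7l1 and Rpl22l1 were tested. Rpl7l1, a relative of Rpl7, had 11.27, 11.50 and 11.57 in KO and 11.59, 11.61 and 11.85 in WT. Every KO value lay below every WT value, although KO replicate 3 and WT replicate 1 differed by little. The change was −0.24 ± 0.13 (SE, n = 3 each; limma adjusted p = 0.632), and a second, dimmer probe gave −0.24. Without KO replicate 1 it was −0.15. Rpl22l1 had 5.38, 6.11 and 6.51 in KO and 6.20, 6.35 and 6.55 in WT, with KO replicate 1 again the lowest value. Its change of −0.37 ± 0.27 (SE, n = 3 each; limma adjusted p = 0.689) was the lowest of the 52 genes and was −0.062 without that array.

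Rpl22, whose protein binds and represses the Rpl22l1 mRNA in mouse cells, was the 1 tested gene of 4 listed as mutated in human T-ALL. It had 10.95, 11.47 and 11.32 in KO and 11.61, 11.25 and 11.44 in WT. The groups overlapped, and the change of −0.19 ± 0.17 (SE, n = 3 each; limma adjusted p = 0.742) was −0.039 without KO replicate 1. The others of that list, Rpl5, Rpl10 and Rpl11, were not analysed here, and Rpl5 and Rpl11 also make up the particle with the smallest ribosomal RNA of the large subunit. Of 18 genes listed for Diamond-Blackfan anaemia, a human failure of red cell production caused by ribosomal protein mutations, 10 were tested, with 7 higher, 3 lower and a median of 0.034. That median was −0.13 under median scaling and −0.0072 without WT replicate 3.

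The 9 genes not past the detection filter were Rpl14, Rpl17, Rpl39l, Rps20, Rps23 and Rps4l, detected on 0 arrays, and Rpl3l, Rpl6 and Rpsa, detected on 2 of the 6. Rpl3l is a paralogue known mainly from muscle and Rpl39l a paralogue known mainly from testis. Rpl14, Rpl17, Rpl6, Rps20, Rps23 and Rpsa encode general ribosomal proteins, and a probe without detection says only that this probe gave no signal above background.

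Signal strength divided the ribosomal protein genes. The mean raw signal before normalisation was over 20000 for 36 of the 52 genes and under 20000 for 16. For 33 of them it exceeded 60% of the highest signal on the array, and array maxima lay between 35109 and 38914 in KO and between 39805 and 42418 in WT. Raw signals of different probes were not compared as amounts of RNA. Before normalisation the median raw signal of the 52 genes was 23771, 26266 and 27645 on the KO arrays and 30433, 29387 and 28946 on the WT arrays. All 3 KO arrays were lower, at 25894 ± 1963 against 29588.5 ± 763.5 (SD, n = 3 each), along with the mean over all probes given above. As a share of each array's summed signal, the 52 genes made up 4.27%, 3.90% and 3.70% in KO and 4.02%, 3.86% and 3.75% in WT. The shares overlapped, at 3.96% ± 0.289 in KO and 3.87% ± 0.137 in WT (SD, n = 3 each). Quantile normalisation gives every array the same distribution, so a shift shared by all genes would be removed by it. Of the 100 brightest features 28 were ribosomal protein genes, so a shift of these genes alone could also be removed in part.

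Bright and dim genes are described apart. Of the 36 genes with raw signal over 20000, 10 had lower values in KO, with a median change of 0.034 and a range of −0.20 to 0.19. Over all 185 features that bright, 50.3% were lower and 3.24% had an unadjusted p under 0.05. Of the 13 genes with raw signal between 1000 and 20000, 10 had lower values in KO, with a median of −0.098, where 52% of all such features were lower and 6.1% had an unadjusted p under 0.05. Of the 3 genes under 1000, 1 was lower. KO replicate 1 had the lowest of the 6 values in 9 of the 16 genes under 20000 and in 6 of the 36 genes over it. The part of signal strength and of this array in the difference was not tested.

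**Figure D3:**
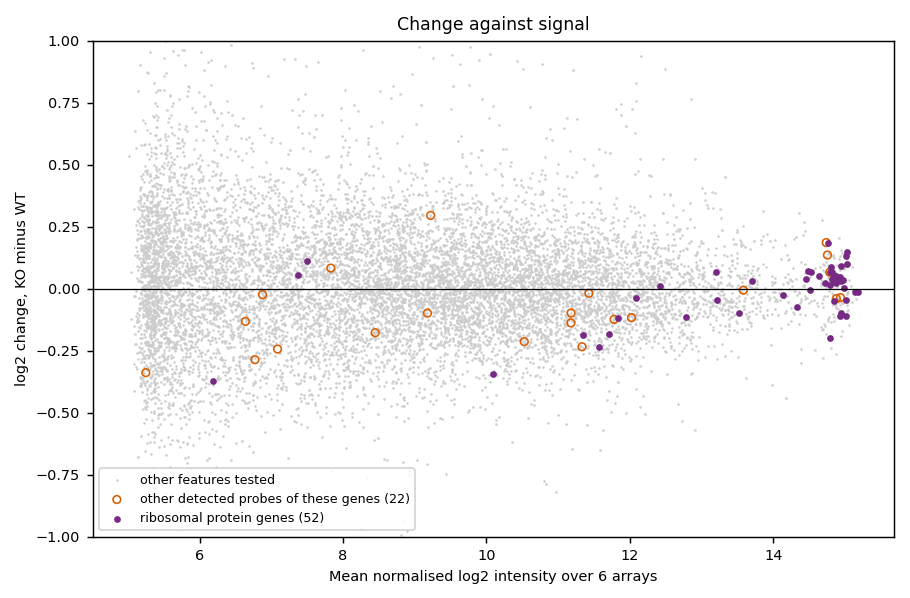
Log2 change (KO minus WT, vertical axis) against mean normalised log2 intensity over all arrays (horizontal axis). Shown are the 52 ribosomal protein genes, their 22 other detected probes and all other features. The genes with mean raw signal over 20000 lie near 0 with a median of 0.034. Of the 13 genes with raw signal between 1000 and 20000, 10 are below 0. Raw signal itself is not drawn, and 50 other features beyond 1 log2 unit are left out.

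Other probes of the same genes gave a different sign more often than not. The 52 genes had 22 further detected probes in 16 genes. Values were lower in KO for 17 of the 22 and higher for 5, with a median of −0.098, and 0 had an unadjusted p under 0.05 by limma. The sign was opposite to that of the brightest probe for 14 of the 22. Such counts were not made for other genes with several probes, so they are not a trait of these genes. Among 9 genes whose brightest probe was over 20000, 12 dimmer probes under 20000 were detected. Their median change was −0.125, with 10 lower and 2 higher in KO, while the brightest probes of the same 9 genes had a median of 0.022, with 3 lower.

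Genes chosen here after their values were seen show this. Rpl31, a protein at the exit, gave 0.034 with its brightest probe and −0.12 and −0.098 with probes of mean raw signal 4312 and 2469. Rpl27a gave 0.017 with the brightest probe, 0.19 with a probe of mean raw signal 27373 and −0.23 with a probe of 2766. Rps24 gave 0.048 with the brightest probe, −0.21 with a probe of 1628 and 0.30 with a probe of 718. In these genes the probes of 1 gene differed from each other by more than its brightest probe differed between KO and WT. Taking the mean of a gene's probes gave 26 genes lower and 26 higher in KO, with a median of 0.0017.

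**Figure D4:**
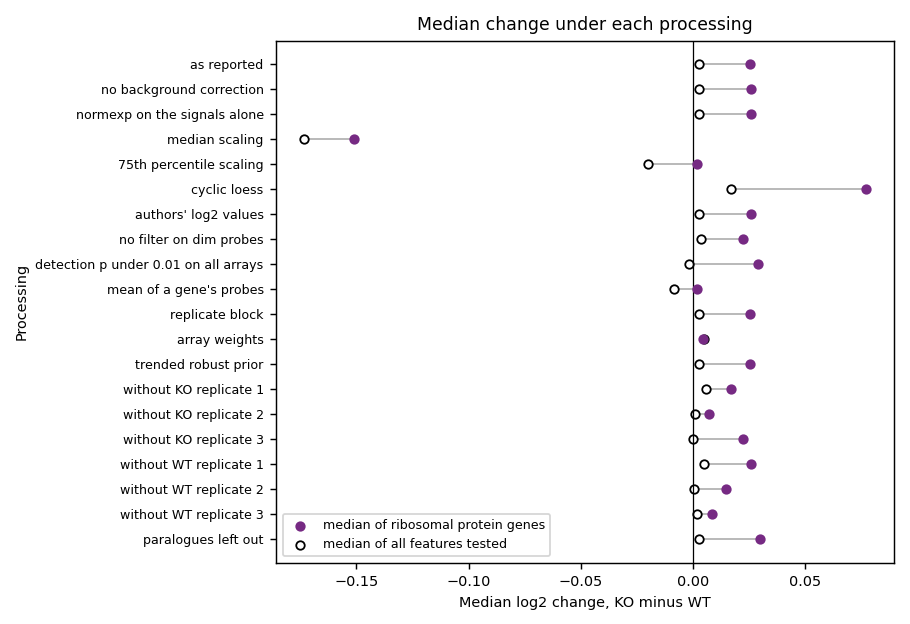
Median log2 change (KO minus WT, horizontal axis) of the ribosomal protein genes and of all features tested under each processing (vertical axis). Median scaling moves the ribosomal protein genes to −0.15 and all features to −0.17, and under the other settings drawn the median of the ribosomal protein genes lies between 0.0017 and 0.077.

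Other genes of the ribosomal protein pathway were followed in lists. Of 5 ribosomal protein genes whose symbols the rule does not match, 1 was measured, Rpl36al, a close copy of Rpl36a, with a change of 0.016 ± 0.11 (SE, n = 3 each).

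Other TOP mRNAs, which share the pyrimidine start and encode mainly translation factors, had 17 of 19 listed genes tested. Values were higher in KO for 6 and lower for 11, with a median of −0.031, and 0 had an unadjusted p under 0.05. Eef1a1, the elongation factor that delivers tRNAs, had 15.02, 15.04 and 15.00 in KO and 14.75, 14.78 and 14.92 in WT. Pabpc1, the poly(A)-binding protein, had 12.36, 12.30 and 12.47 in KO and 12.60, 12.78 and 12.52 in WT. Neither group pair overlapped, and the directions were opposite: 0.20 ± 0.10 for Eef1a1 and −0.26 ± 0.12 for Pabpc1 (SE, n = 3 each; limma adjusted p = 0.609 and 0.576). Npm1, a nucleolar assembly chaperone, had every KO value below every WT value, like Pabpc1, with a change of −0.16 ± 0.10. Eif3k, an initiation factor subunit, had −0.24 ± 0.14, which was −0.022 with the mean of its probes. The genes named from this list were those with its smallest p, a choice that favours groups without overlap. Over all features, every KO value lay above every WT value in 8.49% and below in 7.69%. The list's median was 0.011 without KO replicate 1.

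The genes that control TOP mRNAs through mTORC1 were tested for 15 of 16 listed. Values were higher in KO for 7 and lower for 8, with a median of −0.051 that was 0.034 with scaling to the 75th percentile, 0.085 with the mean of probes and 0.027 to 0.048 without KO replicate 2, WT replicate 1 or WT replicate 2, and 0 passed the adjusted threshold with limma. At an unadjusted p under 0.05, 2 were higher and 2 were lower, where 5% of all features were higher and 4.27% lower. Eif4ebp1, the translation repressor that mTORC1 phosphorylates, had 10.27, 10.55 and 10.49 in KO and 11.25, 11.29 and 11.13 in WT. The groups lay far apart against the spread within them, with a change of −0.79 ± 0.12 (SE, n = 3 each; limma adjusted p = 0.109). The adjusted p of Eif4ebp1 lay between 0.0161 and 0.429 over 18 alternatives and was under 0.05 in 5 of them. Deptor, an inhibitor of mTOR, had 8.45, 8.42 and 8.37 in KO and 8.84, 8.56 and 8.77 in WT. Rptor, the subunit that defines mTORC1, had 10.95, 10.72 and 10.72 in KO and 10.58, 10.45 and 10.33 in WT. Sesn1, a p53 target that restrains mTORC1, had 11.35, 11.32 and 11.11 in KO and 11.00, 10.96 and 10.92 in WT. The groups did not overlap in these 3 genes, with changes of −0.31 ± 0.11 for Deptor, 0.35 ± 0.12 for Rptor and 0.30 ± 0.11 for Sesn1 (SE, n = 3 each; limma adjusted p of 0.473, 0.451 and 0.473). The genes named from this list were those with its smallest p, a choice that favours groups without overlap. Every KO value lay above every WT value in 8.49% of all features and below in 7.69%. The mean of the Sesn1 probes gave 0.095.

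Chaperones and importers, which guard new ribosomal proteins and carry them into the nucleus, had 9 of 11 listed genes tested, with 2 higher, 7 lower and a median of −0.030 that was 0.0019 without KO replicate 3. The 4 with the smallest p were the importer Ipo5 (−0.17), the Rps26 chaperone Tsr2 (−0.11), Bccip (−0.055), whose yeast relative is a chaperone of Rpl23, and Aamp (−0.046), whose yeast relative is a chaperone of Rpl10. Leaving out 1 array turned Tsr2 to 0.055 (KO replicate 3), Bccip to 0.018 (KO replicate 1) and Aamp to 0.0020 (WT replicate 3). Ribosome quality control and rescue had 8 of 9 listed genes tested, with 7 higher, 1 lower and a median of 0.073 that was −0.10 under median scaling and 0.028 without KO replicate 1. Zfp598, the ubiquitin ligase that marks collided ribosomes, had a change of 0.44 ± 0.25 that was 0.14 without KO replicate 1. Gtpbp2, a rescue factor, had 0.20, which was −0.027 without that array, and Nemf and Rnf10 had 0.096 and 0.072, which were 0.0057 and −0.020 without it. No gene of either list had an unadjusted p under 0.05 by limma.

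Free ribosomal proteins can hold Mdm2 away from p53, and 5 of 8 listed genes of that checkpoint were tested, with 4 higher in KO, 1 lower and a median of 0.20. Over the alternatives that median lay between 0.077, without background correction, and 0.35, with scaling to the 75th percentile, and it was 0.10 without WT replicate 3. Bbc3, the pro-apoptotic p53 target Puma, had 9.46, 9.37 and 9.34 in KO and 8.54, 8.67 and 8.37 in WT. All KO values lay clearly above the WT values, with a change of 0.86 ± 0.12 (SE, n = 3 each; limma adjusted p = 0.0843). The adjusted p of Bbc3 was under 0.05 in 6 of 18 alternatives and lay between 0.0165 and 0.429 over them, and the mean of its probes gave a change of 0.46. Mdm4, Cdkn1a and Mdm2 had changes of 0.27, 0.20 and 0.13 with overlapping groups, and Mdm2 was −0.089 under median scaling and 0.024 without KO replicate 1. Mdm4 and Cdkn1a lay near background, each detected on 1 WT array. Mdm4 was 0.077 without background correction and 0.10 without WT replicate 3, and Cdkn1a was 0.060 without background correction and 0.072 without WT replicate 1.

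The mitochondrial ribosomal proteins, which build the separate ribosome inside mitochondria, served for comparison. Of 73 tested genes 61 had lower values in KO, with a median of −0.11, 0 at an adjusted p under 0.05 by limma and 3 at an unadjusted p under 0.05, all lower, where 4.27% of all features were lower at that p. Values were lower for 57 to 71 of the 73 under median scaling, scaling to the 75th percentile and cyclic loess, and for 53, with a median of −0.049, without KO replicate 1. The difference between the mitochondrial and cytosolic sets was not tested.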

How the data were processed

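The members and lists were chosen with earlier results of these data known. Per the file headers, the deposited table paired a linear intensity with a detection p-value for every probe on all 6 arrays. Scanner software and genome build: not given in the sources used here. The authors' processed log2 values equalled the quantile-normalised log2 of the deposited intensities within 5e-05, with a median of 7.2 on every array, and served as an alternative; 0 columns belonged to other samples. Intensities were background-corrected from the detection p-values, offset by 16, quantile-normalised and put on the log2 scale (neqc in limma 3.58.1, R 4.3.3). Of 45281 probes, 34885 had 1 symbol, 18 several and 10378 none; all 91 member probes matched a RefSeq symbol. The filter left 16287 probes. KO was compared with WT by limma (lmFit and eBayes, no covariates), with Benjamini-Hochberg adjustment over 11241 features, after the procedure was tested on simulated data. The number of arrays, 3 per group, limits the precision. Named with values were Hes1, the 8 lowest and 8 highest changes, the 4 smallest p-values, the stalk, tested paralogues, T-ALL-mutated genes, Rps6, Rps14 and Rps19, and up to 4 genes per pathway list by p. Alternatives covered background, scaling, filter, probe choice, replicate block, weights, prior, each array left out, paralogues and threshold. Protein sequences were not used here.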

Additional observations from a re-analysis of the deposited data

How the results depend on the processing

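No ribosomal protein gene passed an adjusted p of 0.05 under any alternative run with limma. At an unadjusted p under 0.05 the trended robust prior gave 3 of 52, where 9.54% of all features passed. The count over all features past the adjusted threshold lay between 2 with the replicate block and 119 with array weights. The number of genes lower in KO (21) was 49 under median scaling and 38 of 74 with each detected probe taken alone, an alternative chosen after seeing the data. Their median change (0.025) was −0.15 under median scaling, 0.0019 with scaling to the 75th percentile, 0.077 with cyclic loess, 0.0017 with the mean of a gene's probes, 0.0044 with array weights and −0.0053 with each probe alone. Leaving out each array in turn gave medians of 0.0070 (without KO replicate 2) to 0.026, 0.0086 without WT replicate 3, and 21 to 25 genes lower. The spread between replicates was 0.0107; the 6 processing changes named, and leaving out KO replicate 2 or WT replicate 3, moved the median by more, and the other 4 arrays left out by less. The cause was not tested. Counts over all features were 7 as reported, 23 with median scaling, 10 with scaling to the 75th percentile, 8 with loess, 36 without background correction and with the authors' values, 30 with normexp, 5 without the filter and with the mean of probes, 17 with strict detection, 47 with the trended prior, 23 at an adjusted p of 0.1, and 2 to 9 with an array left out. Groups share replicate numbers, but deviations of same-numbered arrays correlated at −0.098, −0.272 and 0.150, so the numbers were not taken as pairs; with the replicate block 21 genes were lower, the median was 0.025 and 0 of 52 passed. For named genes and lists, 907 values were classed as the same, 86 as moved and 11 passed the test only under the alternative (Eif4ebp1 5, Bbc3 6). These classes do not give the size of a move. Hes1 was classed as the same at −4.00 without background correction, against −6.44 as reported. Of the called values, 0 changed sign. Signals near background limit Rpl22l1, Rps15a and Rpl21.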
